A study of Mus musculus with 72 samples.

Results

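The mitochondrial ribosomal proteins are the proteins of the ribosome that works inside mitochondria. Their genes were taken as all rows of the deposited count table whose protein-coding mouse symbol is Mrpl or Mrps followed by a number, which gave 78 of 24237 genes, 49 named for the large subunit (Mrpl) and 29 for the small subunit (Mrps). All 78 such symbols of the RefSeq gene table were found, none had a count of 0 in any library, and every one passed the filter on low counts in each of the 23 comparisons. The table holds 72 RNA.seq libraries from hearts of C57BL/6J mice that had been divided into right atrium, left atrium and ventricles, in 24 groups of 3 libraries. The groups were naïve Ahr+/+ mice, Ahr+/+ mice whose dams received low-dose (0.1 μg/kg) or high-dose (1 μg/kg) TCDD by gavage on 3 days of gestation, and unexposed Ahr-/- mice, each as males and females. Ahr encodes the aryl hydrocarbon receptor, and TCDD, or dioxin, is a potent ligand of it. Per the methods, Ahr+/+ dams not given TCDD received the vehicle, corn oil, by gavage, whereas Ahr-/- dams were left untreated. The Ahr-/- mice carry the deletion in all cells and were born to Ahr-/- dams. The genotype of the pup, that of the dam and the dam's lack of gavage therefore cannot be told apart. The study's methods give 3 mice for each sex and condition. The labels give an age of 9 months and gavage at 13.5, at 15.5 and at 18.5 days of gestation, whereas the methods give about 10 months and earlier days, and the labels name TCDD in the treatment of all 72 samples, naïve and Ahr-/- included. Libraries are called here by the number that opens their label.

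The mitochondrial ribosome translates the few messenger RNAs of the mitochondrial genome, which encode core subunits of the respiratory chain and of ATP synthase. All of its proteins are encoded in the nucleus, made in the cytosol and imported, and they assemble on ribosomal RNAs that are transcribed inside the organelle. The heart is rich in mitochondria, and its contraction depends on the oxidative phosphorylation that these complexes carry out.

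The 78 genes lay on 17 chromosomes and were short, with a median coding length of 582 bases against 1212 bases for all coding genes, while their median GC content was 50.4% against 49.5%. Exons of 26 of them overlapped those of another gene in the GENCODE annotation, 17 of them a protein-coding gene, and since the library kit did not mark strand, reads from such exons cannot be told apart. The authors counted over coding regions, so an overlap in untranslated exons may not have entered the counts. Among the genes named below an overlap holds for Mrpl12, Mrpl13, Mrpl36, Mrpl43, Mrpl47, Mrpl51, Mrps6, Mrps18b, Mrps18c, Mrps25 and Mrps30.

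The promoters of 4 genes are shown because these genes had the smallest adjusted p in each direction at the high dose of TCDD in female ventricles, Mrpl41 and Mrpl12 among those higher and Mrps36 and Mrps12 among those lower. Each window is the RefSeq sequence (GRCm38.p6) from 250 bases before to 50 bases after the start, written 5′ to 3′ on the strand of the gene. Capitals mark CCGGAAG, the core bound by ETS factors such as GABPA (a regulator of mitochondrial genes), GCATGCGC, the core of the NRF1 motif, and GCGTG, the core of the AHR response element, each on either strand. The Mrpl41 window is chr2:24975049-24975348, minus strand, that of Mrpl12 chr11:120484387-120484686, plus strand, that of Mrps36 chr13:100744610-100744909, minus strand and that of Mrps12 chr7:28741772-28742071, minus strand.
Mrpl41: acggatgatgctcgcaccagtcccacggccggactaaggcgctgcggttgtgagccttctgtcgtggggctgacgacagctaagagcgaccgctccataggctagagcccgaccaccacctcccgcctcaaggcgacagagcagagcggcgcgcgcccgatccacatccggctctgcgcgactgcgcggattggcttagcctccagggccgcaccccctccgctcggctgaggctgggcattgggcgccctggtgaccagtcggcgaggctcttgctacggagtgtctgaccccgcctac
Mrpl12: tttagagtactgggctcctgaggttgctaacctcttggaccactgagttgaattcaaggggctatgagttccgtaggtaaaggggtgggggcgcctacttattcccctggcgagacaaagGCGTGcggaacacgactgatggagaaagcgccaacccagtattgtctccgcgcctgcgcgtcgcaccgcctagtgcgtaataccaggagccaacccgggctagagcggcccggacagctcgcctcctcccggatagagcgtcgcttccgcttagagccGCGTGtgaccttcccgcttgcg
Mrps36: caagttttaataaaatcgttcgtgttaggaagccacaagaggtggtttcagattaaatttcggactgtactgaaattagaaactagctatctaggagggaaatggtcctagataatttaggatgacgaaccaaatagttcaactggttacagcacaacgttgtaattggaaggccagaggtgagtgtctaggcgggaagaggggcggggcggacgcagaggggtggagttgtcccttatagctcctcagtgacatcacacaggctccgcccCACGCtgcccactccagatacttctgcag
Mrps12: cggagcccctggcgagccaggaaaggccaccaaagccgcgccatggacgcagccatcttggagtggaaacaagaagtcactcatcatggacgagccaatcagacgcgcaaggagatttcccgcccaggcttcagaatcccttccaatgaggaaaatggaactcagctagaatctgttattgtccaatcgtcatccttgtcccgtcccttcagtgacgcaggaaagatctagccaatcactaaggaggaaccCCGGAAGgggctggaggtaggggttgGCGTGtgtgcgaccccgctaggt
A window was found for 69 of the 78 genes. CCGGAAG was present in 36.2% of these 69 windows against 11.9% of the windows of 17492 protein-coding genes, GCATGCGC in 11.6% against 3.61%, and GCGTG in 53.6% against 38.4%. A TATA sequence (TATAAA on either strand) was present in 5.80% against 13.3%. Mrpl41 held none of the first 3 motifs, Mrpl12 held GCGTG at 2 places, Mrps36 at 1 place, and Mrps12 held CCGGAAG and GCGTG once each. These matches describe the letters in the windows only.

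Library totals ran from 11873417 to 28789382 counts (median 19231739). Ahr was at 2.00 to 9.23 CPM (counts of a gene scaled to a library total of 1000000) in the 18 Ahr-/- libraries and at 4.68 to 30.8 CPM in the 54 Ahr+/+ libraries. The labels call the samples cardiomyocytes, but all libraries held endothelial and fibroblast markers, the endothelial sum (Pecam1, Cdh5 and Kdr) at 395 to 749 CPM, so RNA of several cell types was present. In 8 libraries labelled as atrium the atrial light chain Myl4 was under 100 CPM, and in 8 others, 4 labelled female right atrium and 4 labelled male ventricle, Xist and 4 Y-linked genes went against the labelled sex. Results that rest on these 16 libraries are given with and without them. None of them was in a female ventricle group.

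The members were expressed over a wide range of levels. Per kilobase of coding sequence, the median over 72 libraries was highest for Mrps23, at 410.5 CPM per kilobase (range 225 to 756), followed by Mrpl51 with 296 CPM per kilobase (range 133 to 549) and Mrpl42 with 294 CPM per kilobase (range 90.3 to 628). The ranges of these 3 genes overlapped. Mrps22, a small-subunit protein, was lowest with 9.60 CPM per kilobase (range 4.56 to 18.0), then Mrps10 with 13.1 CPM per kilobase (range 5.83 to 33.6) and Mrpl47 with 19.0 CPM per kilobase (range 11.1 to 40.2), again with overlapping ranges, but all of them were below the lowest library of the 3 highest genes. The median gene stood at 64.6 CPM per kilobase among those named Mrpl and at 42.8 among those named Mrps. The 3 paralogs of one bacterial protein, Mrps18a, Mrps18b and Mrps18c, which occupy different places in the ribosome, differed in level: Mrps18a had 68.8 CPM per kilobase (range 24.3 to 149), Mrps18c 34.3 CPM per kilobase (range 14.3 to 75.8) and Mrps18b 21.7 CPM per kilobase (range 10.0 to 39.1). Summed over all 78 genes the level was 1993 to 6212 CPM per library, with a median of 3617.

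**Figure D1:**
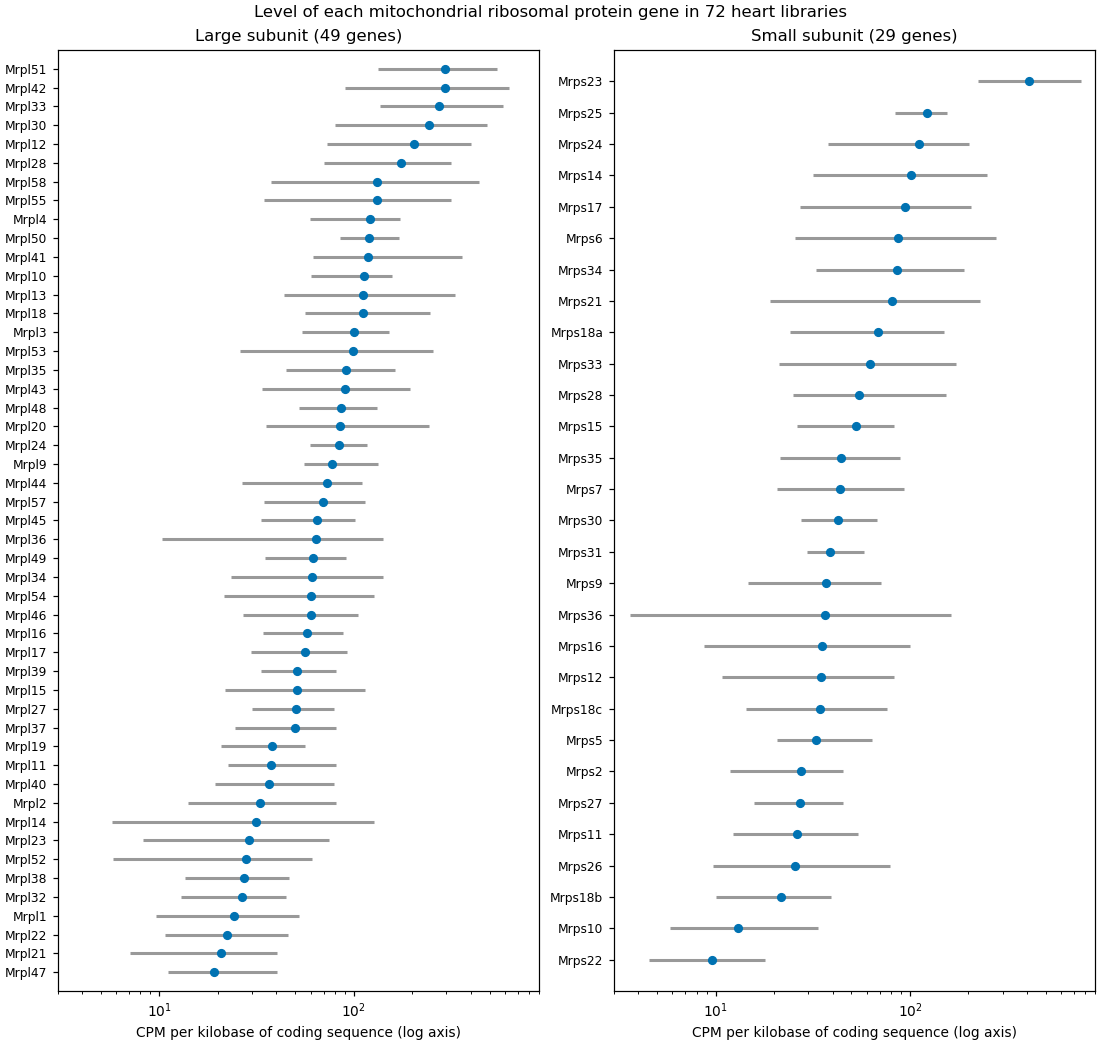
Level of each of the 49 genes named for the large subunit and 29 named for the small subunit in CPM per kilobase of coding sequence on a log axis. The point is at the median of 72 libraries and the line runs from the lowest to the highest library. Mrps23, Mrpl51 and Mrpl42 stand highest and Mrps22, Mrps10 and Mrpl47 lowest, and Mrps36 has the widest range of all.

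The summed level moved with a property of the libraries. It was highest in those whose counts came from shorter genes: over 72 libraries, which share chambers, hearts and sequencing runs, the sum and the count-weighted median coding length had a Spearman's rho of -0.884. Library 47 of the low-dose female ventricles held 6212 CPM at a median length of 1131 bases, and library 1 of the naïve male right atria 1993 CPM at 1476 bases. A fit that removes a length trend from each library is therefore given beside the results below where it changes them; the cause of this relation was not tested.

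**Figure D2:**
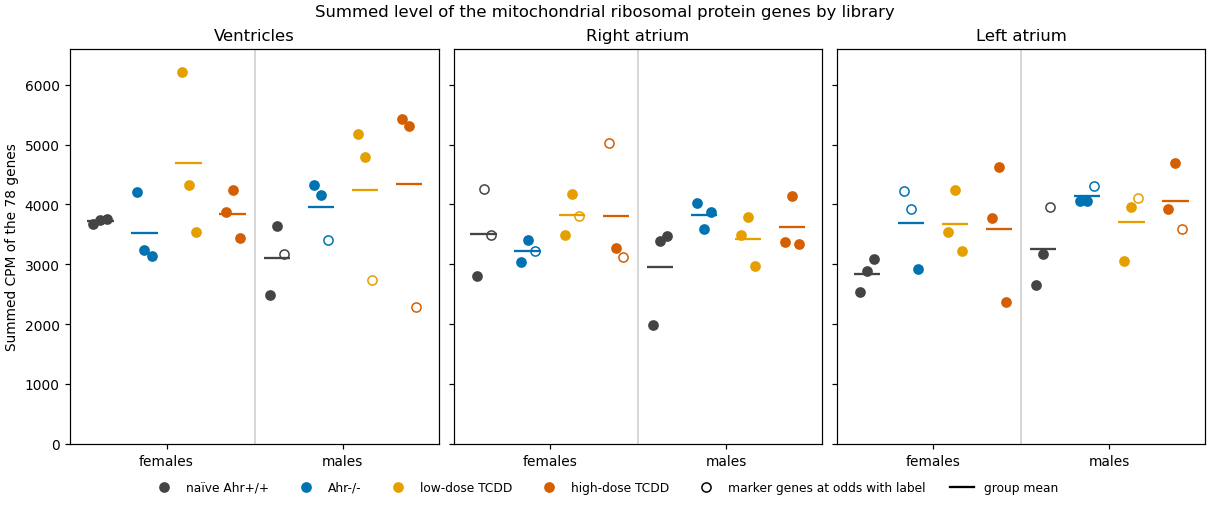
Summed CPM of the 78 genes in each library (points) with the group mean (lines), by chamber, sex and group; open points are the 16 libraries whose marker genes go against their label. The 3 naïve female ventricle libraries lie close together at 3676 to 3764 CPM, while most other groups spread more widely, up to 6212 CPM in the low-dose female ventricles.

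The first comparison asked how the ventricles, which carry the heaviest work load, differed from the atria. Over all groups together, ventricles held more of nearly all member transcripts than either atrium once the libraries at odds with their label were excluded. In the 56 remaining libraries of all groups, fitted together with a term for group and sex in a fit chosen after the data were seen, 71 of the 78 genes were higher in ventricles than in right atrium and 1 was lower, and 70 were higher and 1 lower against left atrium. Over all genes tested, 26.1% were called higher and 28.4% lower in the first comparison, and 24.5% higher and 27.2% lower in the second. The median log2 fold change of the members was 0.62 against right atrium and 0.54 against left atrium, beside -0.02 for all genes in both.

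The direction of the members did not rest on the removal of those libraries alone. With all 72 libraries as labelled in one fit, 47 members were higher and 1 lower against right atrium, where 15.7% of all genes were higher, and 15 were higher and 1 lower against left atrium, where 8.12% were. With the length trend removed in the 56 libraries, 69 and 65 members were called higher, at medians of 0.51 and 0.46. The share of all genes called in these fits of the 56 libraries is not given here. In these libraries the cardiomyocyte markers summed to 25478 to 74298 CPM (median 47452) in ventricles and to 22556 to 66006 CPM (median 40294) in right atria, with 25053 to 74696 CPM (median 40950.0) in left atria. The fibroblast markers summed to 109.8 to 619 CPM (median 414) in ventricles, 335 to 1325 CPM (median 792) in right atria and 307 to 1297 CPM (median 859) in left atria, so that both atria had the higher medians. Markers of lung (Sftpc and Scgb1a1) reached 0.220 CPM in a ventricle, 2062 CPM in a right atrium and 736 CPM in a left atrium. Those of brown fat (Ucp1 and Cidea) reached 15.8, 708 and 398 CPM, those of white fat (Adipoq and Plin1) 3.87, 353 and 472 CPM and those of T cells (Cd3e and Cd3d) 2.46, 13.0 and 73.4 CPM in the same order. The part of these markers in the result was not tested, and fewer cells of a type and less RNA per cell cannot be told apart in tissue. The 3 chambers came from the same hearts, which the labels do not tie together, so that the p-values treat libraries of one heart as independent.

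In the fit of 56 libraries Mrpl14, a protein of the large-subunit core, had the largest difference from right atrium, with a log2 fold change of 1.05 (SE 0.27), and Mrps18a came next with 0.90 (SE 0.15); these and the other genes of this paragraph and the next were chosen after their values were seen. Mrps35, a small-subunit protein, was at a lowest, median and highest value of 29.0, 48.4 and 84.9 CPM in 20 ventricle libraries, 22.8, 35.1 and 44.5 CPM in 18 right atria and 20.6, 39.2 and 56.1 CPM in 18 left atria. Its medians were highest in the ventricles, although the ranges overlapped, and its log2 fold changes were 0.84 and 0.69. Mrpl39 had 43.8, 62.9 and 81.7 CPM in ventricles, 35.4, 47.6 and 62.8 in right atria and 34.7, 46.5 and 61.3 in left atria. Its order was the same, with a smaller spread within each chamber. Mrpl41, Mrpl52, Mrps5, Mrps12 and Mrps36 passed the test against neither atrium.

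Mrps6, a small-subunit protein, was the exception and was higher in the atria. In the naïve libraries without those at odds with their label, its lowest, median and highest values were 9.65, 19.6 and 23.3 CPM in 5 ventricles, 25.4, 61.4 and 76.8 CPM in 4 right atria and 30.3, 38.3 and 87.3 CPM in 5 left atria. The ventricles did not overlap with either atrium. Over all 56 libraries Mrps6 was at 9.65, 20.9 and 41.9 CPM in ventricles and at 23.0, 59.5 and 104 CPM in right atria, which overlapped. The log2 fold change over all 56 libraries was -1.12 (SE 0.17) against right atrium and -0.87 (SE 0.17) against left atrium. Exons of Slc5a3, the myo-inositol transporter gene, overlap those of Mrps6 on the same strand. In the naïve libraries above, Slc5a3 had 9.05, 15.7 and 19.5 CPM in ventricles and 47.0, 52.3 and 59.0 CPM in right atria. In the naïve left atria it had 28.4, 52.3 and 76.8 CPM. Over all 56 libraries Slc5a3 overlapped between these chambers, with 18.1 CPM in a low-dose male right atrium and 20.6 CPM in a low-dose male ventricle. Both genes were higher in the atria of these naïve libraries, and the share of the reads of Mrps6 that belongs to Slc5a3 was not tested.

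**Figure D3:**
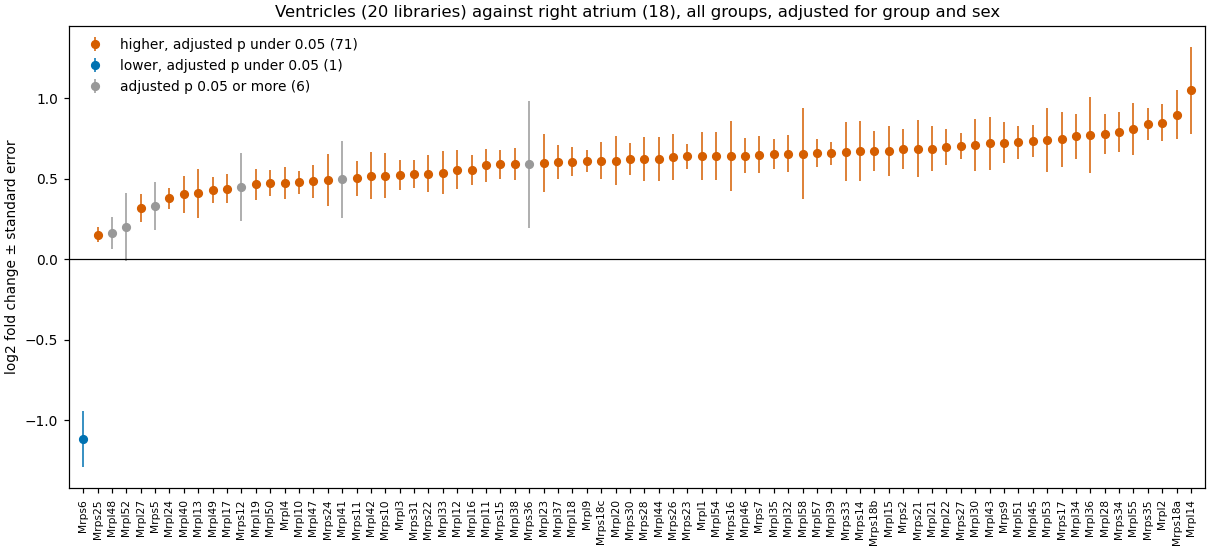
Log2 fold change (± standard error) of each of the 78 genes in 20 ventricle against 18 right atrium libraries of all groups without those at odds with their label, sorted; colours mark genes with an adjusted p under 0.05. 71 genes lie above 0 and are called, and Mrps6 alone is called below 0.

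Naïve mice alone gave fewer calls. With the 6 naïve libraries of each chamber exactly as labelled, no member passed edgeR's test in either comparison of ventricles with an atrium. DESeq2 called 2 members against right atrium and 0 against left atrium, and its calls over all genes are not given here. At an unadjusted p under 0.05, 2 members were higher and 1 lower against right atrium, beside 8.94% and 12.4% of all genes, and 4 were higher and 1 lower against left atrium, beside 4.83% and 7.26%. Leaving out the naïve libraries at odds with their label raised the calls to 5 higher and 1 lower against right atrium, with 19.0% of all genes called, and to 16 higher and 1 lower against left atrium, with 16.4%. These shares of all genes hold both directions. In these fits without libraries at odds with their label, the members were thus called less often than all genes against right atrium and more often against left atrium. In the libraries as labelled, at the unadjusted threshold and in both directions together, they were below the share of all genes against either atrium. The single lower gene was Mrps6 in both, and Mrpl39, Mrpl50, Mrps2, Mrps30 and Mrps35 were the 5 higher against right atrium. Between the right and left atrium no member passed in any fit, by edgeR or DESeq2, with 0 at an unadjusted p under 0.05 and a median log2 fold change of 0.08 in the naïve libraries as labelled.

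The second comparison asked whether TCDD exposure before birth altered these genes in the adult ventricles of females. In the high-dose group members were called in both directions, as were genes in general. Compared with naïve Ahr+/+ females, 19 members were higher and 7 lower, 26 of 78 or 33.3%, where 23.7% of all 14006 genes tested were called, 12.2% higher and 11.4% lower. In this fit the share of members called higher was above that of all genes, and the share called lower was near it. The balance of directions changed with the scaling, as given below. Of the 49 genes named Mrpl 15 rose and 2 fell, and of the 29 named Mrps 4 rose and 5 fell. The split is by symbol only, and the difference between these sets was not tested. The median log2 fold change of the members was 0.17, beside 0.01 for all genes. Summed over all members, the 3 naïve libraries held 3676, 3746 and 3764 CPM and the 3 high-dose libraries 3868, 4237 and 3435 CPM, so that the summed levels overlapped.

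Mrpl41, a large-subunit protein, changed most among those that rose. It was at 32.6, 39.9 and 33.7 CPM in the naïve libraries and at 99.9, 77.4 and 88.9 CPM in the high-dose libraries, that is 35.4 ± 3.93 against 88.7 ± 11.2 CPM (SD, n = 3 each), without overlap. The log2 fold change was 1.51 (SE 0.16) with an adjusted p = 0.00028 (edgeR's quasi-likelihood test, adjusted after Benjamini and Hochberg over all genes tested). Mrpl12, a protein of the ribosomal stalk that also binds the mitochondrial RNA polymerase, was at 84.4, 99.9 and 79.6 CPM in naïve and at 186, 159 and 168 CPM in high-dose libraries. These groups did not overlap either, and the log2 fold change of Mrpl12 was 1.15 (SE 0.14, edgeR adjusted p = 0.00044). Mrpl13 went from 44.8, 41.8 and 42.2 CPM to 87.1, 66.6 and 96.6 CPM, a log2 fold change of 1.16 (SE 0.19, edgeR adjusted p = 0.0017). Mrpl51 went from 91.0, 101 and 101 to 152, 158 and 136 CPM and Mrpl2 from 29.7, 29.8 and 26.1 to 41.0, 46.2 and 41.8 CPM. Both had a log2 fold change of 0.77, with edgeR adjusted p = 0.0018 for Mrpl51 and 0.0022 for Mrpl2. The other 14 that rose had log2 fold changes from 0.41 to 0.95, and the 52 genes that passed in neither direction from -1.12 to 0.42.

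Mrps36 changed most among those that fell. Its protein was first assigned to the small subunit and is also known as a component of the 2-oxoglutarate dehydrogenase complex. It was at 30.5, 28.2 and 24.5 CPM in naïve and at 3.69, 6.33 and 6.34 CPM in high-dose libraries, a log2 fold change of -2.15 (SE 0.23, edgeR adjusted p = 0.00028) without overlap. Mrps12, a conserved protein of the decoding centre, was at 18.9, 23.4 and 18.7 CPM and 6.46, 10.3 and 7.84 CPM, a log2 fold change of -1.13 (SE 0.20, edgeR adjusted p = 0.0024). All high-dose libraries were again below all naïve libraries. Mrpl1 fell from 34.8, 37.0 and 36.7 to 22.7, 24.1 and 14.9 CPM (log2 fold change -0.66), Mrpl43 from 62.5, 60.3 and 52.1 to 36.3, 43.1 and 29.4 CPM (-0.52) and Mrps16 from 19.7, 17.5 and 21.7 to 10.6, 14.5 and 6.59 CPM (-0.76). The groups did not overlap for any of these 3 genes. Exons of Mrpl43 overlap those of Twnk, the gene of the mitochondrial DNA helicase, on the opposite strand. Mrps14 and Mrps33 were the other members called lower.

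**Figure D4:**
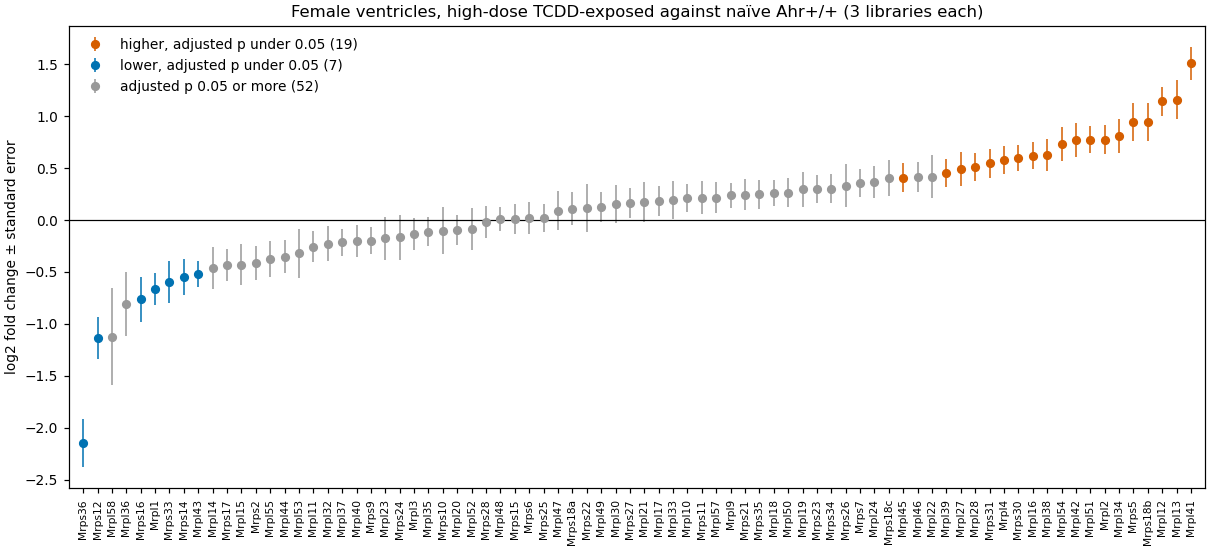
Log2 fold change (± standard error) of each of the 78 genes in 3 high-dose TCDD-exposed against 3 naïve female ventricle libraries, sorted; colours mark genes with an adjusted p under 0.05. 19 genes lie above 0 and 7 below 0 among those called, from Mrps36 at -2.15 to Mrpl41 at 1.51.

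Among the 3 Mrps18 paralogs, Mrps18b rose from 12.7, 15.0 and 15.1 to 24.2, 22.5 and 25.9 CPM, with a log2 fold change of 0.95 and an edgeR adjusted p of 0.0040. Mrps18a had a log2 fold change of 0.11 (adjusted p = 0.65 by edgeR) and Mrps18c of 0.41 (adjusted p = 0.11 by edgeR), neither past the threshold. The difference between the paralogs was not tested. Of the highest and lowest expressed genes, Mrps23, Mrps22, Mrps10 and Mrpl47 did not pass, with log2 fold changes of 0.30, 0.12, -0.10 and 0.09, and Mrpl42 rose by 0.77.

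Scaling and 1 library bore on this count. Scaled by library size only, 9 members were higher and 10 lower among 2380 genes called of 14006, beside a shift of the median of all genes to -0.17, so the balance of directions followed the scaling, whereas the 10 genes named by the rule for this comparison kept their direction. Without library 35 the calls were 11 higher and 3 lower, when 1553 of all 14256 genes tested were called. With all 4 groups in one fit they were 6 higher and 0 lower, when 719 of 14502 genes were called, in place of 3313 of 14006 with 2 groups, so that calls over all genes dropped as well. The sum of 4 cardiomyocyte markers (Myh6, Actc1, Tnnt2 and Tnni3) was 56416 to 74298 CPM in the high-dose and 35678 to 38283 CPM in the naïve libraries, fibroblast markers were at 419 to 517 and 396 to 479.9 CPM, and endothelial markers at 570.5 to 723 and 548 to 665 CPM. The cardiomyocyte sum did not overlap between the groups, and its part in the result was not tested.

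Several of the genes that fell at the high dose also varied widely between replicates. The pooled standard deviation of log2 CPM within the 24 groups of 72 libraries had a median of 0.68 over the 7 genes called lower, 0.37 over the 19 called higher and 0.42 over the 52 not called. It was 1.26 for Mrps36, the largest of all members, 0.79 for Mrps16 and 0.77 for Mrps12, and lowest for Mrps25 with 0.18. Mrpl14, which was not called, had 0.98. Without the 16 libraries at odds with their label, Mrps36 had 1.24, Mrps16 0.73, Mrps12 0.66, Mrps25 0.17 and Mrpl14 0.88. In the Ahr-/- female ventricles Mrps36 was at 27.3, 6.23 and 1.81 CPM, and in the low-dose female ventricles at 49.7, 16.1 and 4.00 CPM. The lowest of these libraries, 60 and 72, thus lay near or below the high-dose libraries, while library 39 lay within the naïve range and library 47 above it. Mrpl41 took the opposite course: library 60 had 146 CPM, against 43.1 and 40.0 CPM in the other Ahr-/- female ventricles. Across the deviations of 72 libraries from their group means, Mrps36 went with Mrps12 (Pearson's r = 0.93), Mrps17 (0.91) and Mrpl36 (0.91), and against Mrpl41 (-0.61) and Mrps5 (-0.61). Mrpl41 went with Mrpl13 (0.81) and Mrps5 (0.76). For 67 of the 78 genes r with the mean of the other members was above 0.5, and for 2 of the 78, Mrpl41 and Mrps5, it was below 0. Without the 16 libraries at odds with their label, 67 were above 0.5 and 3 below 0. These 3 were Mrpl41 (-0.35), Mrps5 (-0.48) and Mrpl13 (-0.094). The r values between pairs of genes are given for the 72 libraries only. These genes were chosen after their values were seen, and libraries share depth, scaling and hearts.

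**Figure D5:**
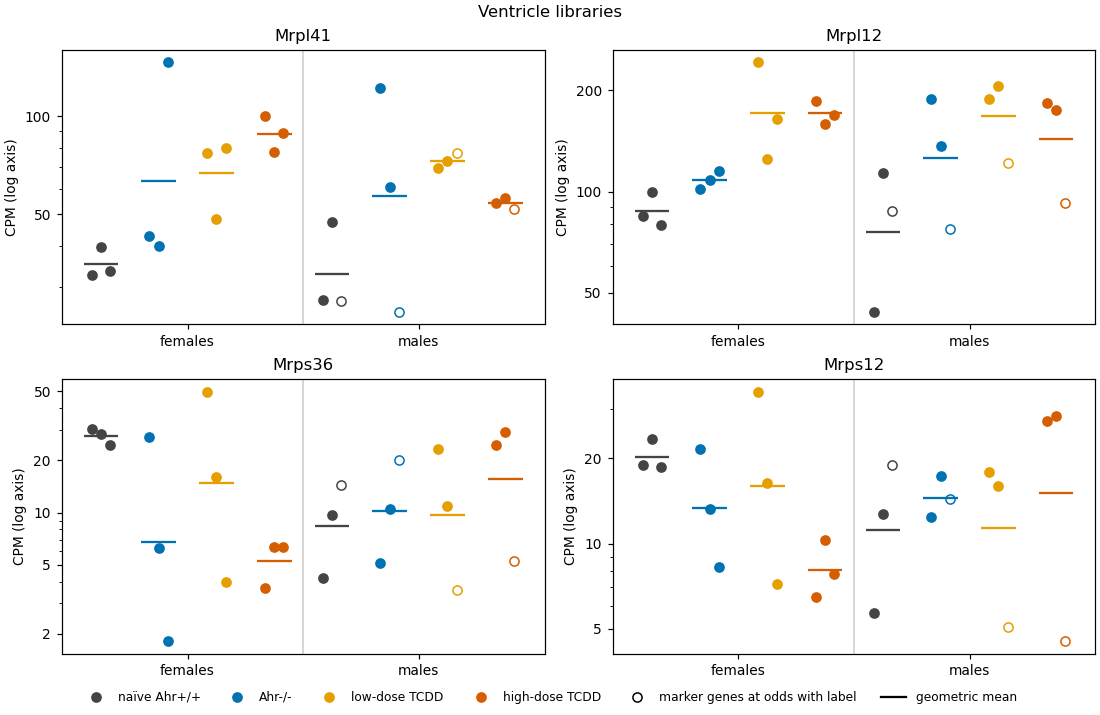
CPM of Mrpl41, Mrpl12, Mrps36 and Mrps12 on log axes in the 24 ventricle libraries by sex and group, with the geometric mean of each group as a line and open points for libraries whose marker genes go against their label. In females the 3 high-dose libraries lie above the naïve ones for Mrpl41 and Mrpl12 and below them for Mrps36 and Mrps12, while low-dose and Ahr-/- libraries spread over a wide range for Mrps36.

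At the low dose, no member of the female ventricles passed the adjusted threshold, and neither did any other of the 13966 genes. At an unadjusted p under 0.05, 33 of the 78 were higher and 0 lower, 42.3%, beside 9.90% of all genes that were higher at this threshold. The median log2 fold change was 0.44, and 0.22 with the length trend removed, when 23 were higher at the unadjusted threshold. The share of all genes with the length trend removed is not given here, so this count of 23 does not set the members apart. Mrpl12 was at 242, 125 and 165 CPM and Mrpl41 at 77.3, 48.5 and 80.0 CPM, all above the naïve libraries, with log2 fold changes of 1.19 and 1.16 and an edgeR adjusted p of 0.14 for both. DESeq2 called 12 members higher among 505 genes in all, and edgeR called 9 among 194 without library 48. The median count-weighted coding length of the 3 low-dose libraries was 1131, 1290 and 1401 bases, and of the naïve ones 1389, 1389 and 1401. High and low dose compared with each other gave 0 calls by edgeR and by DESeq2. At an unadjusted p under 0.05, 0 members were higher and 11 lower at the high dose, beside 2.70% of all genes lower, and Mrps36 had a log2 fold change of -2.03 (SE 0.73).

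Loss of Ahr gave no call among the members in female ventricles by edgeR or DESeq2, where 0.0216% of all genes were called by edgeR. The median log2 fold change of the members was -0.09, and 3 were higher and 1 lower at an unadjusted p under 0.05, beside 6.12% and 3.33% of all genes. Mrpl12 was at 102, 108 and 115 CPM, just above the naïve libraries, and Mrps12 at 21.5, 13.3 and 8.28 CPM, which overlapped with them. Without library 39, in which Mrps36 and Mrps12 stood at the naïve level, 13 members were called lower among 994 genes called in either direction.

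In male ventricles the high-dose libraries split. As labelled, no member passed by edgeR or DESeq2, with a median log2 fold change of 0.58, and 4 of the 78 were higher and 0 lower at an unadjusted p under 0.05, beside 2.93% of all genes higher. The 2 high-dose libraries whose marker genes fit their label, 41 and 42, held 5436 and 5318 CPM in sum, above the 2 naïve libraries that do, 33 and 34, with 2489 and 3643 CPM. The third high-dose library, 65, held 2280.2 CPM; its Xist and Y-linked genes went against its label, and its atrial markers summed to 4175 CPM. Without the libraries at odds with their label, 2 against 2, 44 of 78 were higher and 0 lower, where 7.13% of all genes were higher, at a median log2 fold change of 0.97. Here Mrps36, at 4.18 and 9.70 CPM in naïve and 24.5 and 29.3 CPM in high-dose libraries, rose by 1.99 on the log2 scale (SE 0.36, edgeR adjusted p = 0.013), and Mrps12 went from 5.68 and 12.8 to 27.2 and 28.2 CPM. The naïve male libraries thus stood near the high-dose females for Mrps36, and the high-dose males near the naïve females. With the length trend also removed, 3 members were called higher, at a median of 0.56, when 697 of 13865 genes were called in place of 2209. Leaving out 1 more library instead gave 8 members (without library 41, with 317 of all genes called) to 68 (without library 34, with 5109). The count-weighted median coding length was 1167 and 1221 bases in the 2 high-dose and 1440 and 1416 bases in the 2 naïve libraries, and naïve library 33 also had the lowest sum of all naïve ventricles and the lowest cardiomyocyte marker sum of the 20 ventricle libraries kept, 25478 CPM.

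The difference between the sexes in the high-dose effect was tested as an interaction in the ventricles. As labelled, no member passed by edgeR or DESeq2, with 2 above and 3 below 0 at an unadjusted p under 0.05. The share of all genes at this unadjusted threshold is not given here, so these counts say nothing about the members. Without the 2 libraries at odds with their label, the effect was more negative in females for 30 members and more positive for 0, where 4.57% of all genes had a more negative effect in females, and the median difference of log2 fold changes was -0.83. Mrps36 had the largest difference, -4.17 (SE 0.45, edgeR adjusted p = 0.00021), followed by Mrps12 with -2.80 (SE 0.40, edgeR adjusted p = 0.0010). For Mrpl12 the difference was -0.12 and for Mrpl41 0.87, neither past the threshold. With the length trend also removed, 15 members were more negative and 1 more positive in females, when 687 of all genes were called in place of 1172. The count of 30 ran from 11 (without library 41, with 370 of all genes called) to 51 (without library 34, with 2308) when 1 more library was left out.

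Low-dose male ventricles had no member past the threshold as labelled by edgeR and 7 by DESeq2, whose calls over all genes are not given here. At an unadjusted p under 0.05 in edgeR's fit, 25 of 78 were higher and 0 lower, beside 5.83% of all genes higher. Without the libraries at odds with their label 4 were called higher and 0 lower, where 0.907% of all genes were higher, and without naïve library 34 as well 65 were, among 4738 genes called. Mrpl12 was at 188 and 206 CPM in the 2 remaining low-dose libraries and at 43.9 and 113 CPM in the naïve ones, without overlap. One of these, library 46, held atrial markers at 3269 CPM. Ahr-/- male ventricles had 0 calls by edgeR and DESeq2, with 9 members higher and 0 lower at an unadjusted p under 0.05 beside 1.53% of all genes higher, and a median of 0.42, or 0.55 without the libraries at odds with their label.

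In the left atrium no member passed edgeR's test in any of the 6 comparisons with naïve mice, and no other gene did. DESeq2 called 8 members in low-dose females, 1 in high-dose males and 0 in the other 4 comparisons. Its calls over all genes in these comparisons are not given here, so the counts do not set the members apart. The members' medians were above 0 in all 6, from 0.23 in low-dose males to 0.47 in Ahr-/- females, in comparisons that share their naïve libraries within each sex. At an unadjusted p under 0.05, 27 of 78 were higher in low-dose females, 15 in Ahr-/- females and 5 in high-dose females, beside 8.69%, 7.12% and 4.58% of all genes. In males 10 were higher at the high dose, 2 in Ahr-/- mice and 0 at the low dose, beside 4.75%, 1.24% and 0.701%. No member was lower at this threshold in any of the 6.

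Among the Ahr-/- female left atria, 2 of the 3 libraries, 23 and 24, had Myl4 under 100 CPM. Without these, 1 Ahr-/- library remained, the median was -0.01 and 0 members were higher at an unadjusted p under 0.05. In libraries 1 to 48 only, where these 2 libraries alone stood for the Ahr-/- group, 37 members were called higher and 0 lower, beside 18.4% of all genes called. The sum of the members was 4223 and 3929 CPM in these libraries, 2922 CPM in the third and 2536, 2884 and 3094 CPM in the naïve female left atria. In males, the fits without libraries at odds with their label had 0 calls and medians from 0.26 to 0.51.

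In the right atrium 0 members passed in any of the 6 comparisons by edgeR or DESeq2, and edgeR called 0 of all genes. Medians ran from -0.32 in Ahr-/- females to 0.39 in Ahr-/- males. At an unadjusted p under 0.05, 6 members were higher in Ahr-/- males, 3 in low-dose males and 1 in high-dose males, beside 2.51%, 2.50% and 2.36% of all genes. In females 1 was higher and 2 lower in Ahr-/- mice, beside 3.57% and 1.94%, and 0 at either dose. Of the 12 female right atrium libraries 6 went against their label, 4 of these by sex-linked genes. After their removal, which left 1 naïve library, the Ahr-/- females had a median of 0.20 in place of -0.32 and the low-dose females 0.59 in place of 0.07, with 0 calls in both. The high-dose females could not be fitted without these libraries, since 1 remained in each group.

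Other genes of mitochondrial translation were taken from lists of its factors. In high-dose female ventricles, where 12.2% of all genes rose and 11.4% fell, 6 of 23 assembly factors of the ribosome rose and 2 fell, with the largest changes in Rbfa, a factor that binds the immature small subunit, at 1.12 (SE 0.18, adjusted p = 0.0015) and Mrm3, a methyltransferase of the large ribosomal RNA, at 1.14 (SE 0.20, adjusted p = 0.0022) by edgeR. Of 15 translation factors 4 rose and 1 fell: Qrsl1 and Gatb, 2 subunits of the amidotransferase that makes glutaminyl-tRNA, rose by 0.68 and 0.44, while Gatc, the third subunit, had -0.55. The 5 ribosomal proteins with other names (Dap3, Chchd1, Ptcd3, Aurkaip1 and Gadd45gip1) held 0 that rose and 1 that fell, Ptcd3. A list of 14 genes of mitochondrial transcription, RNA stability and DNA replication also held the regulators Nrf1, Gabpa and Ppargc1a. Of these 14 genes 0 rose and 2 fell. Slirp, which stabilises mitochondrial messenger RNAs, was at -0.90 (SE 0.17, edgeR adjusted p = 0.0030). Tfb2m, a transcription factor of the mitochondrial genome, was at -0.67 (SE 0.13, edgeR adjusted p = 0.0035). Gabpa had -0.0061 and Nrf1 0.35, neither past the threshold.

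Related gene families were taken from the same fits. In high-dose female ventricles, where 12.2% of all genes rose and 11.4% fell, 15 of 79 tested cytosolic ribosomal protein genes rose and 27 fell (median -0.21). Of 46 complex I subunit genes 13 rose and 6 fell (median 0.22). Between ventricles and right atrium in the 56 libraries, 26.1% of all genes were higher and 28.4% lower. Here 14 of 79 cytosolic ribosomal protein genes were higher and 1 lower (median 0.20). Of the complex I genes 46 of 46 were higher (median 0.74), beside 71 of 78 mitochondrial ribosomal protein genes (0.62). With the length trend removed, these medians were 0.06, 0.63 and 0.51. Of the other genes of mitochondrial translation and expression, 5 of 5 other ribosomal proteins, 14 of 15 translation factors and 16 of 23 assembly factors were higher in ventricles than in right atrium. So were 10 of the 14 genes in the list of transcription, RNA stability, replication and regulators, and 0 genes of these lists were lower. The differences between the families were not tested.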

How the data were processed

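Hearts were sequenced in 72 libraries of 50-base single reads, made with a TruSeq RNA kit that does not mark strand. The authors used bcl2fastq, CASAVA 1.8 and TopHat per the labels, with genome build mm10, and deposited whole-number counts of reads per gene without normalization; multi-mapped reads and annotation release are not given in the sources used here. CPM were computed from library totals. Symbols came from RefSeq for 24155 of 24237 identifiers; the others hold 3.91% of counts. Up to 14.0% of a library went to an identifier without symbol, which lowers plain CPM there. Coding lengths came from GENCODE vM21 for all 78 members.

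Each comparison was fitted on all genes with edgeR 4.0.16 (R 4.3.3; filterByExpr, minimum count 10, minimum total 15; TMM; robust quasi-likelihood test; Benjamini-Hochberg adjustment over all genes tested; called under 0.05). Fold changes are on edgeR's log2 scale. Standard errors were taken as the log2 fold change divided by the square root of F. Ventricles against atria had a term for sex. Alternatives were no filter, RLE, library size only, DESeq2 1.42.0, a threshold of 0.0001, a term for the library series (1 to 48 against 49 to 72), libraries 1 to 48 only, removal of a length or GC trend (natural spline, 5 degrees of freedom), all groups in one fit, and leaving out libraries at odds with their label or each library in turn. The fits of all groups without libraries at odds with their label, those combining this with the length trend, and those leaving out 1 further library were chosen after seeing the data. Members, lists and tests were chosen with earlier results of these data known. Named genes were Mrpl12, the 5 of smallest adjusted p in each direction in high-dose female ventricles, the 3 highest and 3 lowest by level, the Mrps18 paralogs and any member called in another main fit. Replicates are the 3 mice per group that the methods give; the labels do not say which libraries share a heart or litter. Methods were tested on simulated data. Python 3.11.15, pandas 2.3.3 and matplotlib 3.10.9 were used for tables and figures.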

Additional observations from a re-analysis of the deposited data

Results flagged for a closer look

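Among the naïve libraries of each chamber, 6 at a time, 57 sets of values (18 named genes and the summed level in 3 chambers) were searched for a library far from the rest, and 2 were found, where chance gives about 1 in 20. Mrpl2 was at 12.9 CPM in library 33, a naïve male ventricle, against 26.1 to 29.8 CPM in the other 5; the same library held the lowest summed level of the naïve ventricles. Mrps23 was at 274 CPM in library 51, a naïve male left atrium with Myl4 under 100 CPM, against 161 to 187 CPM in the other 5.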

How the results depend on the processing

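The count of 26 members called in high-dose female ventricles stayed between 19 and 29 under no filter, RLE, library size only, DESeq2, the library series term, libraries 1 to 48 only and the length and GC trends. It was 6 with all 4 groups in one fit and 0 at an adjusted p of 0.0001, where 4 of all genes were called, and 14 to 31 with each library left out, 14 without library 35. The log2 fold changes of the 12 named genes called there kept their direction in all 180 alternative values and lost the threshold in 18 of them, 9 of these with all 4 groups in one fit. Of the 90 values of the 6 named genes that were not called, none passed and 10 changed sign. These were Mrps22 (-0.020), Mrpl47 (-0.10) and Mrps18a (-0.049) with library size only, Mrpl47 (-0.11) in libraries 1 to 48 only, Mrps18a (-0.17) with the GC trend removed, and 5 values with 1 library left out, over which Mrps22 ran from -0.14 to 0.30, Mrps10 from -0.30 to 0.059 and Mrpl47 from -0.080 to 0.21. Low-dose female ventricles, with 0 calls, gave 2 without the filter, 12 with DESeq2, 1 with all 4 groups in one fit and 0 to 9 with each library left out. Ahr-/- female ventricles gave 0 to 13 (13 without library 39). High-dose male ventricles gave 44 in libraries 1 to 48 only and without libraries at odds with their label, which are the same libraries, 3 with the length trend also removed, and 8 to 68 with 1 more library left out. Low-dose male ventricles gave 7 with DESeq2, 4 in libraries 1 to 48 and without libraries at odds with their label, and 0 to 65 with 1 more left out. High-dose female left atrium gave 1 in libraries 1 to 48 only, low-dose female left atrium 8 with DESeq2, high-dose male left atrium 1 with DESeq2, and Ahr-/- female left atrium 37 in libraries 1 to 48 only and 0 to 7 with each library left out (7 without library 58). The interaction gave 13 in libraries 1 to 48 only, 30 without libraries at odds with their label, 16 with the length trend also removed, 11 to 51 with 1 more library left out, and 0 to 22 with each library left out of the fit as labelled (22 without library 65). Ventricles against right atrium gave 2 with DESeq2, 6 without libraries at odds with their label, 8 with the length trend also removed, 48 with all 72 libraries, 72 without those at odds with their label, 70 with the length trend also removed and 72 without library 46 as well. Ventricles against left atrium gave 9 in libraries 1 to 48 only, 17 without libraries at odds with their label with or without the length trend, 16 with all 72 libraries, 71 without those at odds with their label, 66 with the length trend also removed and 71 without library 46 as well. The cause of these shifts was not tested, except that fits with fewer or more libraries differ by construction. Most of these counts are given without the calls over all genes in the same fit. Alone they do not set the members apart from other genes. In the comparisons with 0 calls, all other alternatives run gave 0 as well. Where libraries at odds with their label were removed, a lone library of a group is assumed to vary like the others. No paired analysis was possible because each library has its own number and the labels do not say which libraries share a heart.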
